A study of Homo sapiens with 6 samples.

Results

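The histone mark H3K9me3 (histone H3 carrying 3 methyl groups on lysine 9) was mapped by ChIP-seq, in which antibody-bound chromatin is sequenced. The cells were BJ, an established fibroblast line from human skin, and the list of peaks from the cells with a control guide is described here on its own. All peaks of this list on chromosomes 1 to 22 were taken, 22148 of the 23653 peaks in the list and of the 50558 peaks in the 3 lists of the series. The cells carried CRISPR interference (a guide RNA that brings a repressor to a gene) with the control guide sgCtrl. Per the labels' protocols, they were fixed with 1% formaldehyde for 10 min. The sources used here name neither the promoter of the repressor nor the number of clones. By its name, the list sets H3K9me3 against input DNA from the same cells. The peak names inside it carry another guide name (NC_sg1) than the labels (sgCtrl), and the list was assigned by the labels. There was 1 H3K9me3 library and 1 input library, so no value below has a replicate check, and intervals on shares are 95% Wilson intervals that cover counting error only. The sequencing depth is unknown.

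H3K9me3 is a mark of heterochromatin, the compact and mostly silent part of the genome. It is written by SUV39H1 and SUV39H2 over the satellite repeats around centromeres, and by SETDB1 where TRIM28 and zinc finger proteins with a KRAB domain bring it to retroelements and to zinc finger genes. HP1 proteins bind the mark and hold the chromatin together. Large blocks of heterochromatin at the centromeres of chromosomes 1, 9 and 16 were never sequenced in the GRCh38 assembly, so no peak can lie inside them.

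Few peaks lay over gene starts, and the DNA before 4 zinc finger genes of chromosome 19 shows what was inside and outside the mark. Each sequence is the 250 bases before the annotated start in RefSeq (GRCh38.p14), with CG dinucleotides in capitals. In ZNF404 and ZNF613 the whole stretch lay under a peak, and in ZNF91 and ZNF69 none of it did, although both carry long marked bodies.
ZNF404, chr19:43883965-43884214, minus strand: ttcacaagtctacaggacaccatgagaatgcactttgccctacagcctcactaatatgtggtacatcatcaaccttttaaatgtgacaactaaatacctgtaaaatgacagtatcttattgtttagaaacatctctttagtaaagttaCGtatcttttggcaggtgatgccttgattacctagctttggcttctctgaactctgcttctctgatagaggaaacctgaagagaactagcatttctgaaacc
ZNF613, chr19:51927222-51927471, plus strand: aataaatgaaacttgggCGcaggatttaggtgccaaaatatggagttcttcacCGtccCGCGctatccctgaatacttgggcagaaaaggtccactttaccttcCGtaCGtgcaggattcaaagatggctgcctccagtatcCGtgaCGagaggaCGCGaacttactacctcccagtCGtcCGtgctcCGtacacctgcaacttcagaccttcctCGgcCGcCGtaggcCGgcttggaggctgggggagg
ZNF91, chr19:23395472-23395721, minus strand: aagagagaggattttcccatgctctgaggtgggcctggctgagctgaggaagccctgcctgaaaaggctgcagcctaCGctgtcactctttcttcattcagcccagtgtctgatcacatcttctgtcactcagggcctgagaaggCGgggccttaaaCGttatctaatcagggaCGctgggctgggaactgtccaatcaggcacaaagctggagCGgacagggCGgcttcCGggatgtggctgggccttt
ZNF69, chr19:11887532-11887781, plus strand: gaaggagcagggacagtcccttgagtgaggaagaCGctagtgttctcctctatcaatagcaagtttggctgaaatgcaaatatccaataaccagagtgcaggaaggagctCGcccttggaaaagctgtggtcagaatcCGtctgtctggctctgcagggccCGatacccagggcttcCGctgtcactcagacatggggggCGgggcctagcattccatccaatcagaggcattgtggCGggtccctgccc
The stretch of ZNF404 holds 1 CG and 38.4% G or C, and that of ZNF613 holds 17 CG and 55.2%. The stretches of ZNF91 and ZNF69 hold 7 CG each, with 56.8% and 56.0%. The marked and the unmarked stretches therefore overlap in CG number. The Sp1 motif GGGCGG, searched on both strands as GGGCGG or CCGCCC, was found in ZNF91 and ZNF69 and in neither of the others. This split did not hold for other genes, since ZNF274, with a peak at its start, holds the motif, and ZNF141, with none, does not. Of ZNF717, also with no peak there, 1 of 2 starts holds it. Of all windows, 54.0% of the 21156 of coding genes hold it in these 250 bases.

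The peaks were narrow and unevenly spread. Peak width ran from 225 to 48986 bp with a median of 865 bp, and 30.4% of the peaks were under 500 bp. The 936 peaks of at least 5000 bp made up 4.23% of the list. Those of at least 10000 bp numbered 217 and held 9.95% of the 32.0 Mb under peaks. The gap from a peak to the next on the same chromosome had a median of 4084 bp and was never under 902 bp. Of the 2886 windows of 1 Mb, 562 (19.5%) had no peak. Some of these windows lie in unsequenced DNA, such as the heterochromatin blocks of chromosomes 1, 9 and 16, where no peak could lie. The 29 windows with most covered bases held 39.7% of all bases under peaks and the 144 highest held 78.2%. The window with most, from 44000001 to 45000000 on chromosome 8, had 769 kb under 132 peaks.

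Centromeric regions held the largest share of the mark. A centromeric stretch is here the gene-free interval at the centromere of each chromosome. The stretches held 11388 peaks, 51.4% of the list (interval 50.8 to 52.1), and 20.3 Mb or 63.3% of the covered bases. The rule as first written took, on chromosome 14, the unsequenced short arm in place of the neighbouring interval that holds the centromere, and gave 49.4%. The interval that holds the centromere was used below, a choice made after the data were seen. Clusters of zinc finger genes held 978 peaks, 4.42% of the list (4.15 to 4.69), but 9.66% of the bases. Of the peaks outside stretches and clusters, 1376 (6.21% of the list) lay within 5 Mb of a stretch, acrocentric short arms included. Of those then left, the outer megabase of the arms held 198 (0.894%) and the rest of the arms 8208 (37.1%). The deposited score had a median of 21 over the list, 30 in the stretches, 19 in zinc finger clusters and 17 in the rest of the arms.

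**Figure D1:**
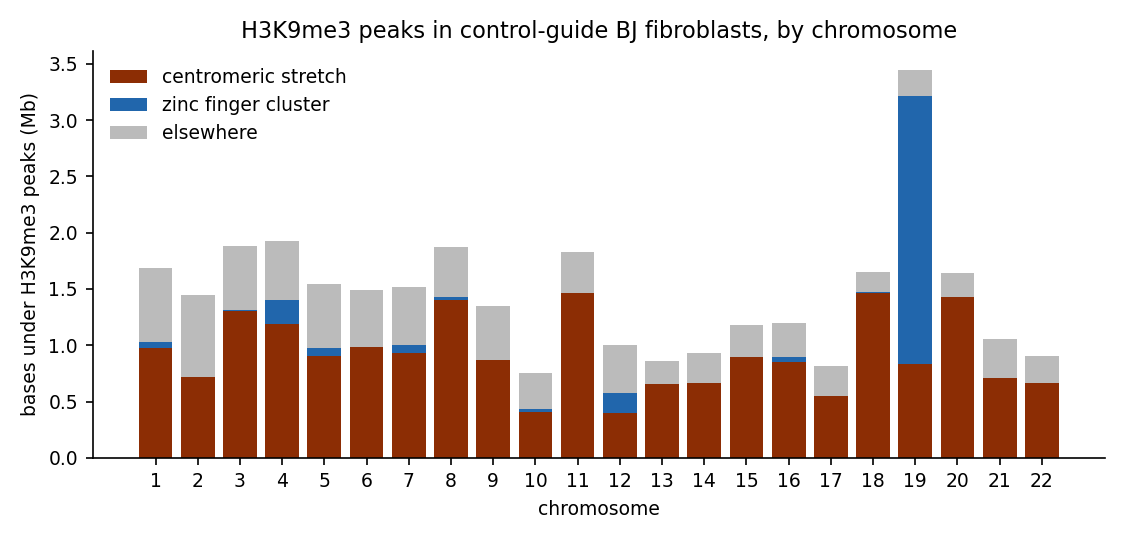
Bars give the bases under H3K9me3 peaks of each chromosome in Mb, split into centromeric stretch, zinc finger clusters and elsewhere. Chromosome 19 has 3.44 Mb, and its zinc finger clusters have more bases than its centromeric stretch.

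Chromosome 19 stood apart from the other autosomes. It had 1598 peaks over 3.44 Mb, and the next longest coverage was 1.93 Mb on chromosome 4. Chromosome 10 had the shortest, 0.754 Mb, and chromosome 20 the fewest peaks, 591. On chromosome 19, 751 peaks and 69.2% of the covered bases lay in zinc finger clusters, and 24.2% of the bases in the centromeric stretch. On chromosome 18 the split was the opposite, with 1176 of 1416 peaks and 88.7% of the bases in the stretch. Over the 22 chromosomes the share of bases in the stretch ran from 24.2% to 88.7% with a median of 66.8%.

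Centromeric stretches differed in how densely they were covered. On chromosomes 3, 4, 6, 8 and 20, peaks covered 52.3% to 64.6% of the span from the first to the last peak, and their median width was 1749 to 3270 bp. On chromosomes 10, 12 and 17 they covered 12.8% to 14.01%, with median widths of 767 to 837 bp. The other chromosomes lay between these groups, at 22.2% to 39.0%. Chromosome 18 had the most peaks in its stretch, 1176, but with a median width of 983 bp they covered 26.4% of the span. Chromosome 15 had wide peaks, 1903 bp at the median, over 32.0% of its span, which holds an empty interval of 0.530 Mb. Of the acrocentric chromosomes, whose short arms carry ribosomal RNA genes and shared satellites, chromosomes 13, 14, 21 and 22 were close to each other. Their stretches had 438 to 476 peaks, median widths of 1105 to 1145 bp and median scores of 40 to 43. Chromosome 15, also acrocentric, differed, with 321 peaks and a median score of 28. Chromosome 2, which is not acrocentric, had 469 peaks with a median width of 1171 bp and a median score of 32. Reads of satellites can fit more than 1 place or chromosome, and how such reads were treated is not given. The part of this in the likeness of chromosomes 13, 14, 21 and 22, and in the differences between stretches, was not tested.

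**Figure D2:**
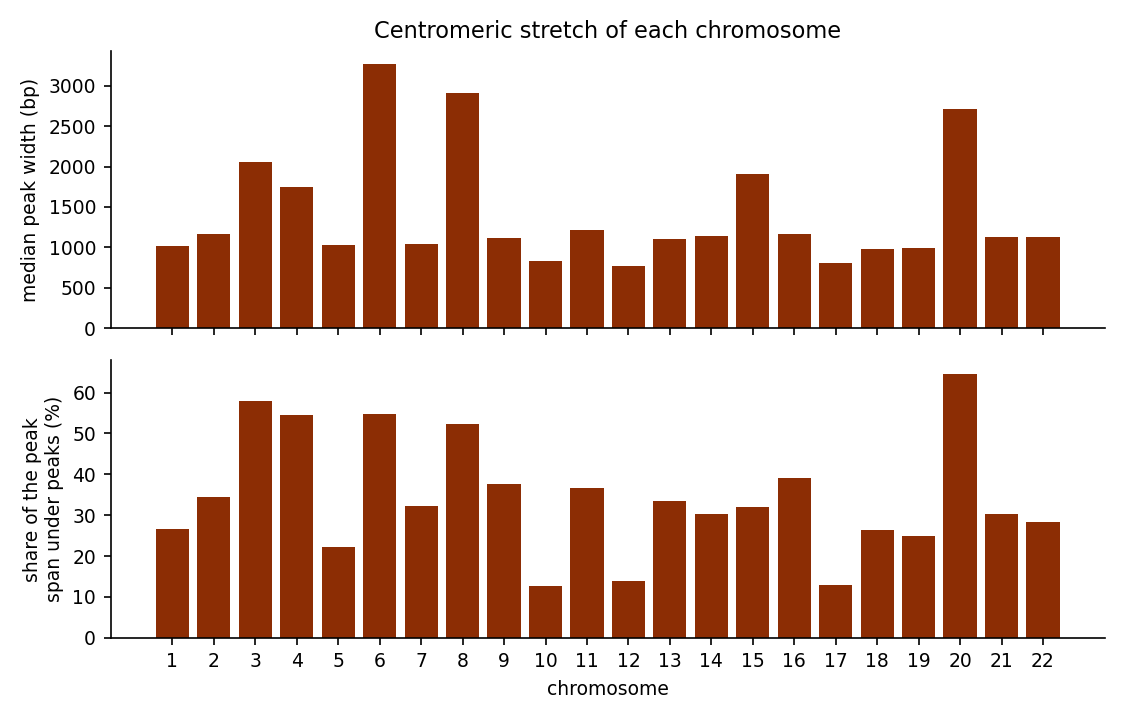
Bars give, for the centromeric stretch of each chromosome, the median peak width in bp (top) and the share of the span from the first to the last peak that lies under peaks in percent (bottom), leaving out the empty intervals of over 1 Mb on chromosomes 1, 9 and 16. Chromosomes 3, 4, 6, 8 and 20 reach 52.3% to 64.6%, and chromosomes 10, 12 and 17 lie at 12.8% to 14.01%.

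Joined across gaps of up to 5 kb, the peaks formed 10255 domains, of which 8058 (78.6%) were a single peak. In the stretches 31.7% of domains were a single peak, in zinc finger clusters 44.5% and elsewhere 89.0%. The longest domain ran over 1838 kb on chromosome 8, from 44038881 to 45877207, with 297 peaks. Domains of 1375 kb on chromosome 20 and 1276 kb on chromosome 6 followed, with 218 and 205 peaks. Of the 204 domains of at least 50 kb, 178 lay in stretches, 19 in zinc finger clusters and 7 elsewhere. The longest empty intervals inside stretches ran from 125183875 to 143184633 on chromosome 1, from 45517539 to 60572488 on chromosome 9 and from 38280450 to 46380718 on chromosome 16, and lay on the chromosomes whose heterochromatin is unsequenced. Outside stretches and clusters, 1 domain passed 100 kb, 114 kb with 26 peaks from 85714412 to 85828303 on chromosome 8. A domain of 59.1 kb with 16 peaks from 9213602 to 9272678 on chromosome 4 lay over the array of USP17L genes.

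Scores were highest in centromeric stretches, and high score did not go with large width there. Of the 820 peaks with a score of at least 100, 802 lay in stretches and 0 in zinc finger clusters, where the highest score was 49. The 5 highest scores were 6585, 3774 and 3449 on chromosome 1 and 3188 and 2760 on chromosome 17. The first of them, from 125178838 to 125183874, borders the empty interval of chromosome 1, and the next, at 143230138 to 143233625 and 143200196 to 143203574, lie just beyond its far end. The pair on chromosome 17 is narrow, 699 and 799 bp, at 26603631 to 26604329 and 26619435 to 26620233. All 5 lie in centromeric stretches, which are gene-free by definition, so none of them could overlap an annotated gene. Spearman's rho between width and score was 0.085 over the 11388 peaks of the stretches and 0.53 over the 978 peaks of zinc finger clusters, as a description only, since peaks of 1 library share its depth and the same caller. Score is the authors' own value per peak, and its scale is not given in the sources used here.

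**Figure D3:**
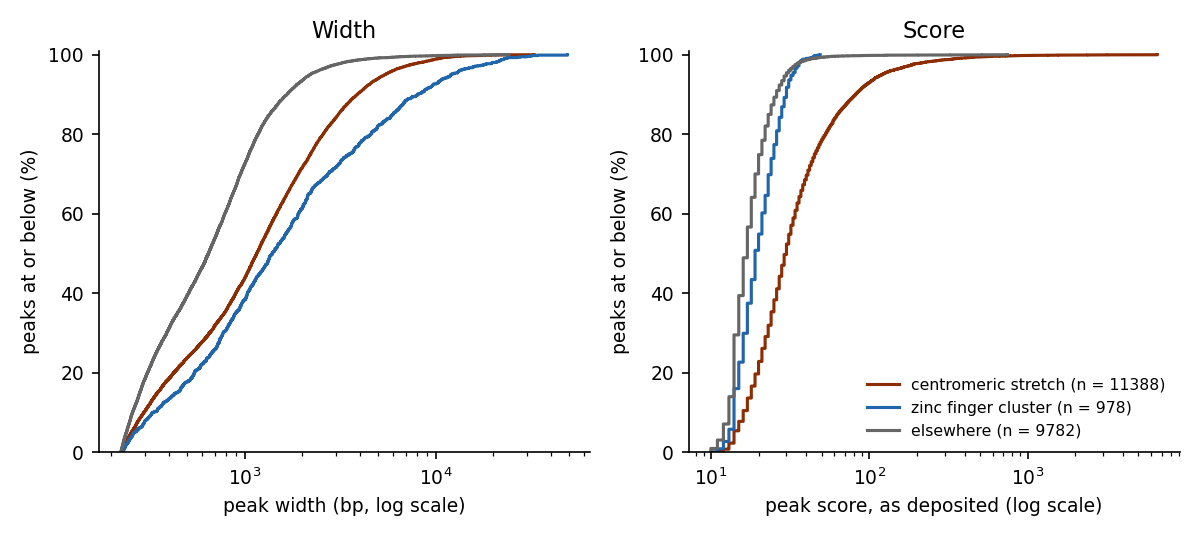
Curves give the percentage of peaks at or below each width in bp (left) and each deposited score (right), both on log axes, for centromeric stretches, zinc finger clusters and elsewhere. Zinc finger clusters reach the largest widths, with scores up to 49, and centromeric stretches reach the highest scores.

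Outside the stretches, peak density fell with distance and then stayed level. The first megabase beside a stretch held 12.1 peaks per Mb, the next 6.62 and the third 4.97. From 10 to 20 Mb away the density was 3.498 and from 20 to 50 Mb 3.70 peaks per Mb. The highest scores of the arms were also found near stretches. On 16p, peaks at 34576185 to 34576692, 34581384 to 34588649 and 34590133 to 34596132 had scores of 744, 569 and 404 and lay about 1.5 Mb from the stretch, in no annotated gene. A peak of score 379 at 18730474 to 18730716 on chromosome 22 lay 3.22 kb from FAM230E. The remaining peak of the highest 5 lay near the end of 18p, at 107187 to 110765, within the pseudogene ROCK1P1, with a score of 518.

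The ends of the chromosomes held 9.15 peaks per Mb in their outer megabase, against 5.00 in each of the next and 3.18 from 3 to 5 Mb. Of the 357 peaks in the outer megabase, 159 lay in zinc finger clusters. The ends of 19q, 4p and 12q had 232, 212 and 187 kb under peaks, and 8q followed with 35.1 kb. Each of these 4 ends holds a zinc finger cluster. Acrocentric short arms, where sequenced and before the stretch, held 228 peaks on chromosome 21 (252 kb), 134 on 22 (155 kb) and 2 on 14. On chromosomes 13 and 15 the stretch as defined starts at the first base, so no short-arm peak could be counted apart from it.

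Chromosome arms ranged more narrowly in peak density once zinc finger clusters were set aside. Over 39 arms the density ran from 1.96 peaks per Mb on 8p to 17.5 on 19q, with a median of 3.63. The arms 19q and 19p, at 17.5 and 16.5, stood far above 4p at 5.01, the next highest. Without the clusters the range was 1.96 to 5.19, with 19q at 3.91 and 19p at 5.19. Coding genes per Mb and peaks per Mb had a Spearman's rho of 0.17 over the 39 arms (Pearson's r 0.79), and without the clusters 0.12 (r 0.29). Without both arms of chromosome 19, left out after the data were seen, rho was 0.027 and r -0.03 over 37 arms, so the larger r rests on these arms. Gene-dense 17q, with 14.7 coding genes per Mb, had 2.47 peaks per Mb, and gene-poor 13q, with 3.49, had 2.87. These values are a description, since all arms come from 1 library.

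Zinc finger genes encode DNA-binding proteins, many of them KRAB repressors, and were selected by symbol (ZNF, ZFP, ZSCAN, ZKSCAN, ZIM or ZIK with a number). Of 553 such genes, 337 had at least 1 bp of their body under a peak (60.9%, interval 56.8 to 64.9), against 2578 of all 18973 protein-coding genes, 13.6%. Other coding genes were marked in 2241 of 18420 cases (12.2%). Inside clusters 261 of 349 zinc finger genes were marked (74.8%), outside clusters 76 of 204 (37.3%). The other coding genes that lie inside the same clusters were marked in 11 of 84 cases (13.1%), close to the share of all coding genes. Marked zinc finger genes had a median of 6550 bp under peaks, 27.0% of their length, and other marked genes 910 bp and 0.739%.

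The share marked was also compared between genes of like length. Among genes of 10 to 30 kb, 62.0% of 284 zinc finger genes (interval 56.2 to 67.4) and 2.68% of 4967 other coding genes (2.26 to 3.16) were marked. Among genes of 30 to 100 kb the shares were 75.8% of 165 and 13.6% of 5114. For other coding genes the share rose with length, from 1.12% under 10 kb to 57.8% at 300 kb and over, where the marked genes had a median of 0.285% of their length under peaks. At 100 to 300 kb the shares overlapped, with 40.7% of 27 zinc finger genes (24.5 to 59.3) and 38.3% of 2443 others (36.4 to 40.2).

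Along the gene body, the mark of zinc finger genes grew from the 5' to the 3' end. Over the 292 marked zinc finger genes with a known strand, the mean share of bases under peaks over the body cut into 10 equal bins was 5.63% in the first bin, 30.0% in the fifth, 53.2% in the ninth and 49.9% in the last, and 25.7% in the 5 kb after the gene. In the 5 kb before the gene it was 7.00%. The last exon of such genes usually codes for the array of zinc fingers. Other marked coding genes showed no such rise, with 1.58% in the first bin, 2.89% in the seventh and 2.06% in the last over 1829 genes. The first marked base of zinc finger genes lay a median of 9.56 kb from the start (quartiles 4.26 and 18.6 kb).

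**Figure D4:**
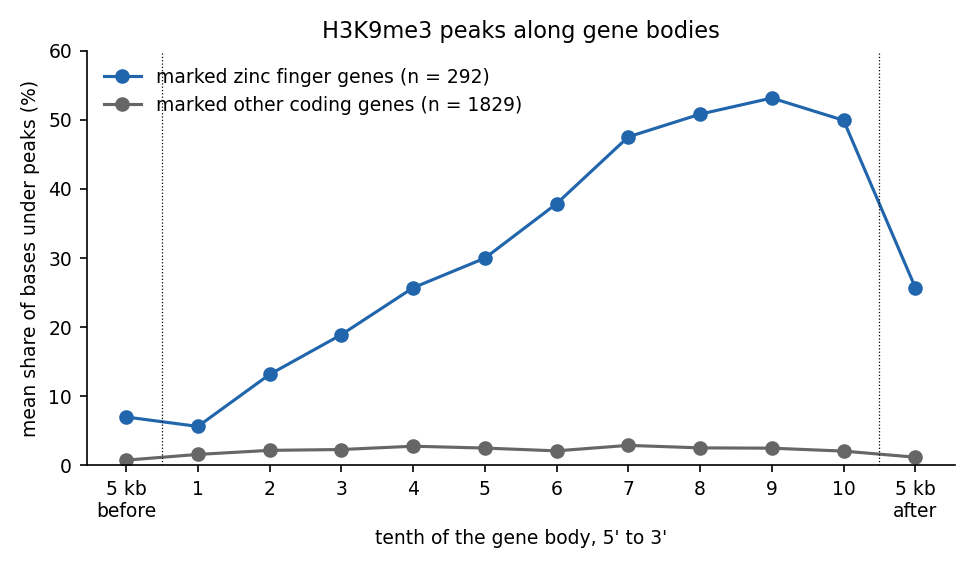
Points give the mean share of bases under peaks in percent for each of 10 equal bins of the gene body from the 5' to the 3' end, with 5 kb before and after, for 292 marked zinc finger genes and 1829 other marked coding genes. The zinc finger genes rise from 5.63% to 53.2% in the ninth bin, and the other genes stay at or below 2.89%.

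Gene starts were nearly free of peaks. A promoter window is 300 bp, from 250 before to 50 after an annotated start. Among 15101 coding genes with such a window, 25 had a peak in any window (0.166%). Among the 2121 of them with a marked body, 23 did (1.08%). Of 466 zinc finger genes 3 did (0.644%), namely ZNF274, ZNF404 and ZNF613. These are 3 of the 292 zinc finger genes with a marked body (1.03%), beside 20 of 1829 other marked genes (1.09%). In ZNF274 the peak reached 43 bp into the stretch before the start. For comparison within the gene, a 300 bp window at the outermost start of marked zinc finger genes held a peak in 4 of 292 (1.37%, interval 0.534 to 3.47), one in the middle of the body in 104 (35.6%) and the last 300 bp in 127 (43.5%). For 1820 other marked genes the numbers were 10, 48 and 27. All these genes were taken for a marked body, which favours the middle and last windows. Of the start window, 250 of the 300 bases lie before the body. Windows with at least 20 CG dinucleotides held a peak in 0 of 8893, which allows a share of up to 0.0337% by a limit of 3 counts and 0.0432% by the Wilson interval, and windows with 10 to 14 in 10 of 2244 (0.446%). Windows with fewer than 5 held one in 8 of 4705 (0.170%).

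The 28 zinc finger clusters (runs of at least 4 such genes with gaps of up to 250 kb) differed widely. Chromosome 19 held 13 of them with 248 of 349 genes, and peaks covered 18.4% of their 12.9 Mb. The 15 clusters elsewhere had 12.5% of 5.59 Mb covered. The densest were ZNF605 to ZNF268 at the end of 12q, from 132918306 to 133214832, with 60.3% covered and all 7 zinc finger genes marked, and ZNF595 to ZNF721 at the end of 4p, from 53321 to 499156, with 46.7% covered and all 5 marked. On chromosome 19 the run from ZNF565 to ZNF573 (36182060 to 37779586) led with 34.9%, 557 kb and 27 of 29 genes. No peak lay in 3 clusters, ZNF786 to ZNF746 on 7q (8 genes), ZNF48 to ZNF629 on 16p (9 genes) and ZNF628 to ZNF580 on 19q (7 genes). In the cluster from ZNF165 to ZSCAN23 on 6p 3 of 10 genes were marked over 1.19% of the length.

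**Figure D5:**
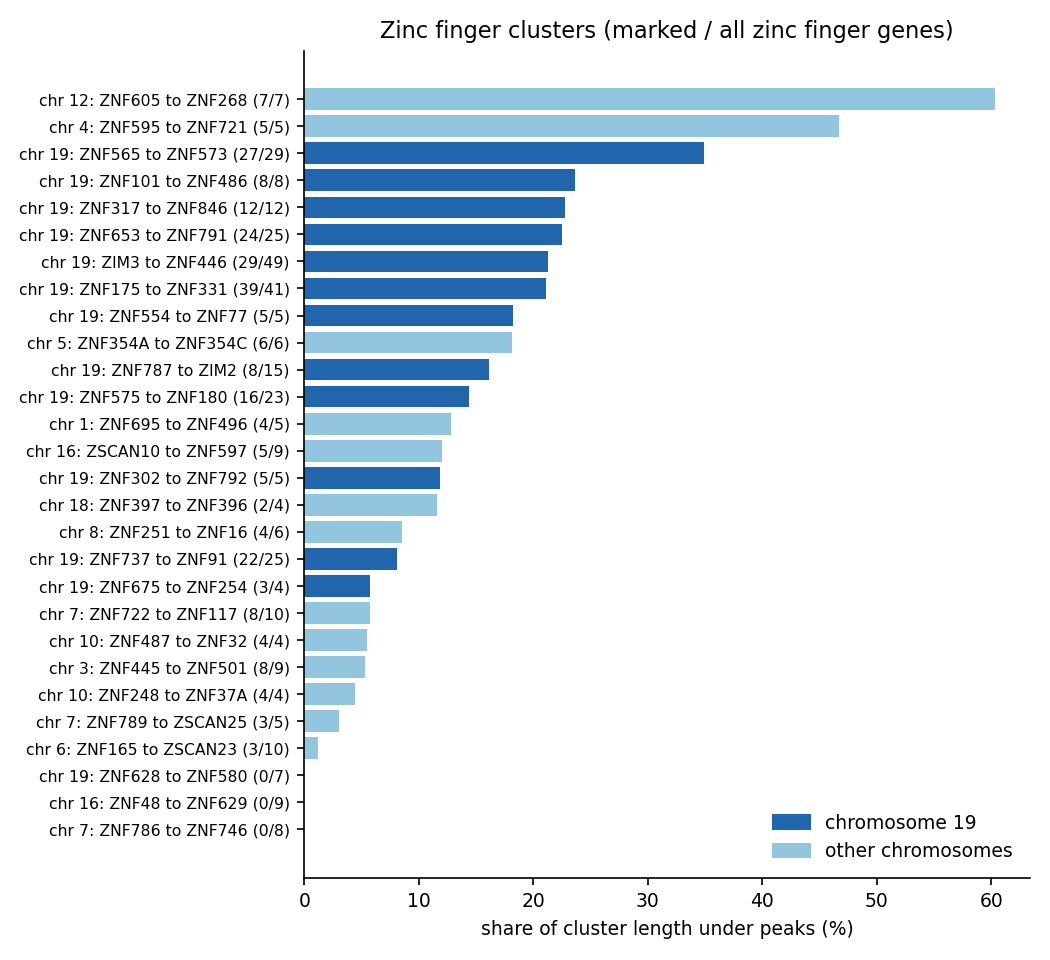
Bars give the share of each zinc finger cluster's length under peaks in percent, with the first and last gene and the number of marked zinc finger genes out of all. The cluster of 12q reaches 60.3%, and 3 clusters have no peak.

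Single genes showed how far the mark could extend. ZNF91, which encodes a repressor of SVA retroelements, had 42.7 kb under 14 peaks, the most of any coding gene, over 47.2% of its body. ZNF717 on 3p, outside any cluster, followed with 40.6 kb, of which 24.2 kb were 1 peak, the widest of the arms outside clusters. ZNF559-ZNF177 (39.1 kb, a read-through of neighbouring genes), ZNF69 (37.9 kb), ZNF141 (37.6 kb), ZNF578 (37.6 kb), ZNF718 (37.3 kb) and ZNF420 (37.1 kb) came next. ZNF569, ZNF540, ZNF605, ZNF721, ZNF345, ZNF544 and ZNF567 completed the first 15, down to 29.4 kb. All 15 are zinc finger genes. The covered share reached 95.2% in ZNF84 and 86.2% in ZNF605 on 12q, 94.4% in ZNF274, 86.0% in ZNF606 and 84.4% in ZNF583 on 19q, and 98.9% in ZNF404, whose whole mark was 1 peak. Peaks covered at least 50% of the body in 95 zinc finger genes and 24 other coding genes.

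Within the larger clusters of chromosome 19 the mark was spread over several genes. The run from ZNF175 to ZNF331 (51571283 to 53580269) had 423 kb under 134 peaks and 39 of 41 genes marked, with ZNF578 (37.6 kb), ZNF841 (23.2 kb) and ZNF880 (22.4 kb) first. In the run from ZIM3 to ZNF446, which ends near the tip of 19q, 29 of 49 genes were marked over 289 kb, led by ZNF544 (31.5 kb), ZNF274 (28.8 kb), itself a factor that brings SETDB1 to zinc finger genes, and ZNF606 (22.6 kb). The run from ZNF653 to ZNF791 had 24 of 25 genes marked over 259 kb, led by ZNF69, ZNF44 (29.2 kb) and ZNF700 (16.0 kb). The longest run, from ZNF737 to ZNF91 over 2865 kb beside the centromere, had 22 of 25 genes marked but 8.06% of its length covered, led by ZNF91, ZNF626 (29.3 kb) and ZNF737 (22.6 kb). All 12 genes from ZNF317 to ZNF846 and all 8 from ZNF101 to ZNF486 were marked, over 22.8% and 23.6% of these clusters. From ZNF575 to ZNF180, 16 of 23 genes were marked over 14.4% of the length, and from ZNF787 to ZIM2 8 of 15 over 16.1%.

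Of the peaks of at least 10000 bp, more lay in centromeric stretches than in zinc finger clusters, but the stretches held far more peaks. As a share, wide peaks were more frequent in the clusters. Peaks of at least 5000 bp made up 17.9% of the 978 peaks in clusters and 5.99% of the 11388 in stretches. Most of the few widest peaks named here, of the list and of the arms, lay over zinc finger genes. The widest of all spanned 48986 bp on 4p, from 422039 to 471024, across ZNF721 and the pseudogene ABCA11P. Peaks of 34.1, 32.0 and 31.2 kb lay on chromosome 19 over ZNF567, ZNF790 and the pair ZNF382 and ZNF461, and 1 of 32.8 kb lay in the centromeric stretch of chromosome 20. Outside clusters and stretches, the widest peak after that of ZNF717 lay over SNORD116 copies in SNHG14 on 15q (22.5 kb), and the peaks of 21.3, 21.2 and 18.3 kb covered ZFP90 on 16q, ZNF286A on 17p and ZNF510 on 9q. Their scores were 29 to 37, so the widest peaks were not those with the highest scores of the list. For comparison, the upper quartile of the score was 25 in zinc finger clusters and 20 in the rest of the arms, and the median in the stretches was 30.

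Coding genes that are not zinc finger genes carried shorter marks. The gamma protocadherins, neural adhesion genes with overlapping bodies on 5q, led with 22.6 kb in PCDHGA1, 22.4 kb in PCDHGA2, 21.5 kb in PCDHGA3 and 20.3 kb in PCDHGA4, over 12.4% to 12.9% of each body. These values count the same bases repeatedly. MAPK9, which encodes the kinase JNK2, had 20.9 kb over 35.4% of its body on 5q.

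Gene lists chosen for other functions were read against the 13.6% of coding genes that were marked, and against genes of like length. For coding genes other than zinc finger genes, the share was 1.12% under 10 kb and 57.8% at 300 kb and over. Of 22 matched genes that write, read or erase H3K9 methylation or assist in it, 8 were marked, led by ZNF274 (28.8 kb), the SETDB1 partner ATF7IP (7.40 kb) and the demethylase KDM4B (2.52 kb). Among 30 long synaptic genes, with a median length of 1116 kb, 17 were marked, each over less than 1% of its body, such as the potassium channel partner KCNIP4 with 5155 bp and SYT1 with 4400 bp. Clustered protocadherins had 24 of 53 marked, a count that includes gamma genes whose overlapping bodies share the same peaks. The USP17L deubiquitinase genes, most of them in tandem arrays, had 10 of 25 marked, with USP17L15, USP17L17, USP17L18 and USP17L22 covered in full. Olfactory receptors had 6 of 386 marked, ribosomal protein genes 1 of 80 (RPS16), and HOX, keratin and histone genes 0 of 39, 0 of 55 and 0 of 76. These gene families are short, with median lengths of 0.497 to 6.43 kb.

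Of 17 skin fibroblast markers 3 had a peak, near the share of all coding genes: DCN with 3288 bp, PDGFRA with 1137 bp and COL1A2 with 827 bp, each over less than 8% of the body. Among markers of other cells, 2 of 6 keratinocyte genes (TP63 and DSG3), 1 of 5 melanocyte genes (MITF), 1 of 5 endothelial genes (ERG) and 1 of 5 blood genes (CD8A) had one. These counts are too small to set apart from each other, and a peak list does not show which of the genes were expressed.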

How the data were processed

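The deposited files are lists of peaks. The score in column 5 of the deposited list is the authors' own value, a whole number of at least 10 whose scale no source used here names. The submitters' processing notes name MACS2 2.2.9.1, Bowtie2 2.4.2, deepTools 3.5.1 and GATK, and the builds hg38 and GRCh38.p13. The peak-calling settings, the treatment of reads that fit several places and the read numbers are not given there. A smallest gap or width set by the caller would change peak counts and spacing.

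Genes and promoter windows came from RefSeq for GRCh38.p14, whose chromosomes have the coordinates of GRCh38.p13. Of the gene table, 676 genes with scaffold coordinates (153 coding) were left out, and 56080 were used. The sequence of the genome was not used here. A centromeric stretch is the longest gene-free interval within 3 Mb of a centromere position set by hand to the nearest Mb. Gene-body profiles used the genes whose promoter windows give 1 strand. Peaks were assigned to regions by their midpoint. Coverage is in bases of the deposited intervals. No test was run, since there was 1 library. Named genes and peaks were those with most bases per gene, cluster or list, the widest and the highest-scoring, and the zinc finger genes with and without a marked promoter. Members and lists were chosen with earlier results of these data known. Functions were tested on simulated data. The software was pandas 2.3.3, numpy 2.4.6, scipy 1.17.1 and matplotlib 3.10.9 under Python 3.11.15.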

Additional observations from a re-analysis of the deposited data

Results flagged for a closer look

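The list holds 1505 peaks on sequences other than chromosomes 1 to 22, 6.36% of all its peaks, which no value in the report uses. Of these, 588 lie on X or Y and 917 on 184 other sequences, such as unplaced, unlocalised, alternate or patch sequences.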

How the results depend on the processing

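No paired analysis was possible because there was 1 library and no test. Alternatives that involve centromeric stretches are given by the rule as written and then, after "with", with the chromosome 14 interval that holds the centromere, which the report uses and which was chosen after the data were seen. The share of peaks in centromeric stretches was 49.4% by the rule as written, with that interval 51.4%. By the rule as written it was 53.5% for stretches free of coding genes only, 51.7% for every gene-free interval of at least 1 Mb. As a share of bases it was 61.2%, with the interval 63.3%. It rose to 71.9% of peaks at or above the median score, with the interval 75.2%, and to 86.8% of those at or above the upper quartile, with the interval 92.1%. It fell to 15.2%, with the interval 15.6%, of domains merged within 5 kb, which join many centromeric peaks into 1. The share in zinc finger clusters was 4.42% and became 3.78% and 1.11% under these score limits, 3.22% after merging, 4.70% with gaps of up to 500 kb, 3.42% with at least 8 genes per cluster and 9.66% as a share of bases. Marked coding genes numbered 2578, and 1099 and 202 under the score limits. Marked zinc finger genes numbered 337, and 62 at or above the upper quartile, so their share of 60.9% became 11.2% there, beside 1.06% of all coding genes. Median width was 865 bp, 1186 and 1206 bp under the score limits, 812 bp after merging and 689 bp outside the stretches, with the interval 678 bp. The median gap was 4084 bp, 3391 and 4333 bp under the score limits, 92215 bp after merging and 71158 bp outside the stretches, with the interval 79571 bp. Requiring 500 bp under peaks left 1954 coding and 318 zinc finger genes. Genes with a peak in a promoter window numbered 25, and 13 and 5 under the score limits. The unknown depth limits how many weak peaks could be seen, and no interval here covers it.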

Other observations

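A domain of the mark lay over the SNORD116 genes, small nucleolar RNA copies of the imprinted region lost in Prader-Willi syndrome. It was chosen after its values were seen. Peaks of 7.26, 22.5 and 6.25 kb ran from 25046349 to 25084702 on chromosome 15, with scores of 23, 29 and 21. They covered 16 of the 30 SNORD116 copies in full, SNORD116-1 and SNORD116-3 to SNORD116-17, and another peak of 251 bp lay farther along. The covered part was 54.8% of the 56.9 kb from the first to the last copy. None of the 48 SNORD115 copies and none of the 40 SNORD113 and SNORD114 copies of other imprinted arrays had a peak, and 22 of all 1144 snoRNA genes did (1.92%). Among the imprinted genes listed, with a median length of 30.6 kb, 5 of 25 had a peak, beside 13.6% of all coding genes. For coding genes other than zinc finger genes, the share was 2.68% at 10 to 30 kb and 13.6% at 30 to 100 kb. At 300 kb and over it was 57.8%. The 5 marked imprinted genes were led by KCNQ1 (17.4 kb under peaks of a 404 kb body) and the overlapping KCNQ1OT1 (15008 bp). PLAGL1, UBE3A and MEG3 each had under 1 kb.

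The arms held 623 peak-free intervals of at least 1 Mb. The longest was 5.43 Mb on 5q, from 160713968 to 166144542, with 8 coding genes. The next, 5.10 Mb on 6p from 28379619 to 33484506, holds 173 coding genes from ZSCAN23 to ZBTB9, with 19 HLA genes among them. The list has 5 peaks on the 7 alternate sequences of this region, and the part of alternate sequences in the empty interval was not tested.

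Zinc finger pseudogenes had a peak in 32 of 90 cases (35.6%), against 279 of all 15537 pseudogenes (1.80%). Of 1793 miRNA genes 2 lay under a peak, both inside zinc finger genes, MIR4273 within ZNF717 and MIR571 within ZNF141. The mature sequence of the latter is given with its seed in capitals (RefSeq, GRCh38.p14, chr4:350217-350237, plus strand).
hsa-miR-571: uGAGUUGGccaucugagugag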
